A study of Mus musculus with 36 samples.

Results

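Aminoacyl-tRNA synthetase genes encode the enzymes that load each tRNA with its amino acid, and they were followed here in CD4 T cells with and without TRIM28, a co-repressor that KRAB zinc-finger proteins bring to DNA. Members were the genes whose symbol is 1 amino-acid letter followed by "ars", with or without a final 1 or 2, together with Eprs, Farsa and Farsb, each read from a probe set annotated with that symbol alone. The rule found 34 genes among 22180, and all 34 passed the filter on low values (a log2 intensity above 5.26 in at least 3 samples), as did 13082 genes in all. By their names, 18 were cytosolic (Cars, Eprs, Farsa, Farsb, Gars, Hars, Iars, Kars, Lars, Mars1, Nars, Qars, Rars, Sars, Tars, Vars, Wars and Yars) and 16 mitochondrial (Aars2, Cars2, Ears2, Fars2, Hars2, Iars2, Lars2, Mars2, Nars2, Pars2, Rars2, Sars2, Tars2, Vars2, Wars2 and Yars2). Gars and Kars, which make enzymes for both compartments, were kept with the cytosolic genes.

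Arrays were run on TRIM28-deficient mouse CD4 T cells (KO) and on cells of wild-type littermates (WT), in 12 groups of 3 samples. Each genotype was profiled as sorted naive cells and after 72 h of stimulation through CD3 and CD28 in conditions called Th1, Th2, Th17, Treg and Th0. Strain, age, the cytokines of each condition and the promoter that drove the deletion were not given in the sources used here. The labels do not say whether samples of a group came from separate mice, so p-values measure the spread between samples, which may be technical.

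The cytosolic and mitochondrial enzymes do the same chemistry for different ribosomes, and in mammals nearly all are encoded by separate nuclear genes. An uncharged cytosolic tRNA is sensed by the kinase GCN2, which phosphorylates the initiation factor eIF2 and so favors translation of the transcription factor ATF4. ATF4 is known to raise genes of amino acid synthesis and uptake and several cytosolic synthetase genes, and T cells raise their translation machinery when they leave the naive state.

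Promoter sequences from RefSeq (GRCm38.p6) could be matched to 25 of the 34 genes. They are shown because the DNA element bound by ATF4 with C/EBP proteins, TGATGNAA, was found in cytosolic genes alone among them. Searched on both strands over 250 bases before and 50 after each start, it was in 4 of 11 cytosolic genes, in 0 of 14 mitochondrial genes and in 4.51% of 27025 genes with a promoter of this length. The 42 bases before and the 18 after the start site are given for those 4 genes, with the element in capitals, and for the mitochondrial counterparts that 3 of them have among the members.
Gars (chr6:55037959-55038018, plus strand): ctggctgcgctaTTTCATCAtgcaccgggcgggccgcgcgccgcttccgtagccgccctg
Iars (chr13:49682088-49682147, plus strand): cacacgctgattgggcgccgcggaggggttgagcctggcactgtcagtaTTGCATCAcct
Tars (chr15:11399641-11399700, minus strand): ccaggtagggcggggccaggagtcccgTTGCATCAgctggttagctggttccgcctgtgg
Yars (chr4:129189861-129189920, plus strand): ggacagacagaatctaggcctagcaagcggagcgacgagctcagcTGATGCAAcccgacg
Iars2 (chr1:185329384-185329443, minus strand): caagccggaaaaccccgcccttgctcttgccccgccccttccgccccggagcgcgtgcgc
Tars2 (chr3:95754960-95755019, minus strand): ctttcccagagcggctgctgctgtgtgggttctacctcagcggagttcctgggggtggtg
Yars2 (chr16:16302923-16302982, plus strand): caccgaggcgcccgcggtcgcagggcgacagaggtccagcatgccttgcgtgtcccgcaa
The leftmost printed base of the element lay at -30 in Gars, 8 in Iars, -15 in Tars and 4 in Yars, counted from 1 at the start site. In Gars, Iars and Tars the element read on the strand opposite to the gene. The E-box CACGTG, a palindrome bound by Myc among others, was found in 3 of the 11 cytosolic genes (Farsb, Iars and Tars), in 1 of the 14 mitochondrial genes (Ears2) and in 8.09% of all genes. A match of letters describes a window and shows no binding.

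Values are log2 array intensities, with sample medians of 5.18 to 5.35 and mean correlations over genes of 0.99 to 0.995 within groups. Trim28 read 7.20 to 7.86 in naive KO samples and 5.51 to 6.58 in stimulated KO samples, against 9.31 to 9.71 in naive WT samples and 9.21 to 9.99 in stimulated WT samples; which exons its probes cover was not checked. Of 10 CD4 T cell markers 8 were on the array, all above the median of all values in every group, with a mean per sample of 10.7 to 11.4 in KO and 10.7 to 11.3 in WT. B cell markers averaged 4.30 to 4.91 per KO sample and 4.26 to 4.82 per WT sample, myeloid markers 4.50 to 5.34 in KO and 4.51 to 5.06 in WT, CD8 markers 5.91 to 7.13 in KO and 5.63 to 6.94 in WT, and NK and gamma-delta markers 4.03 to 5.69 in KO and 4.13 to 5.62 in WT. Single genes of these lists had much higher group means. The highest were 8.90 in KO Th17 and 8.54 in WT Th17 for B cells, and 9.74 in KO Th2 and 8.85 in WT naive for myeloid cells. For NK and gamma-delta cells they were 9.80 in KO Th17 and 9.41 in WT Th17, and for CD8 cells 8.73 in KO naive and 8.60 in WT naive. The filter passed 3 of 8 B cell, 3 of 10 myeloid, 2 of 5 NK and gamma-delta and 2 of 2 CD8 genes on the array. Those called between KO and WT were Klrd1 (NK, 1.38 ± 0.27), Cd8b1 (-0.59 ± 0.21) and Cd79b (B cells, -0.50 ± 0.15) in Th0, Pax5 (B cells, -0.32 ± 0.13) in Th1, Adgre1 (myeloid, 1.10 ± 0.22) in Th2, Itgam (myeloid, 0.77 ± 0.15) and Cd79b (0.51 ± 0.15) in Th17, and Itgam (1.72 ± 0.15) and Cd8a (1.02 ± 0.24) in Treg. The changes of the 3 myeloid genes tested were all positive in KO Th2 against WT Th2 (median 0.47), and the part of other cells in the synthetase changes was not tested. In RNA from bulk samples, fewer cells of a type and less RNA per cell cannot be told apart. Sample 1 of KO Th0 and sample 1 of KO Th1 stood apart: the proliferation gene Mki67 read 8.61, 10.86 and 10.64 in KO Th0 and 9.0, 10.94 and 10.93 in KO Th1, against 11.66, 11.66 and 11.77 in WT Th0 and 11.40, 11.49 and 11.57 in WT Th1. Changes come from a limma fit to all 36 samples, are given on the log2 scale with their standard error, and were called at an adjusted p under 0.05 over the 13082 genes.

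**Figure D1:**
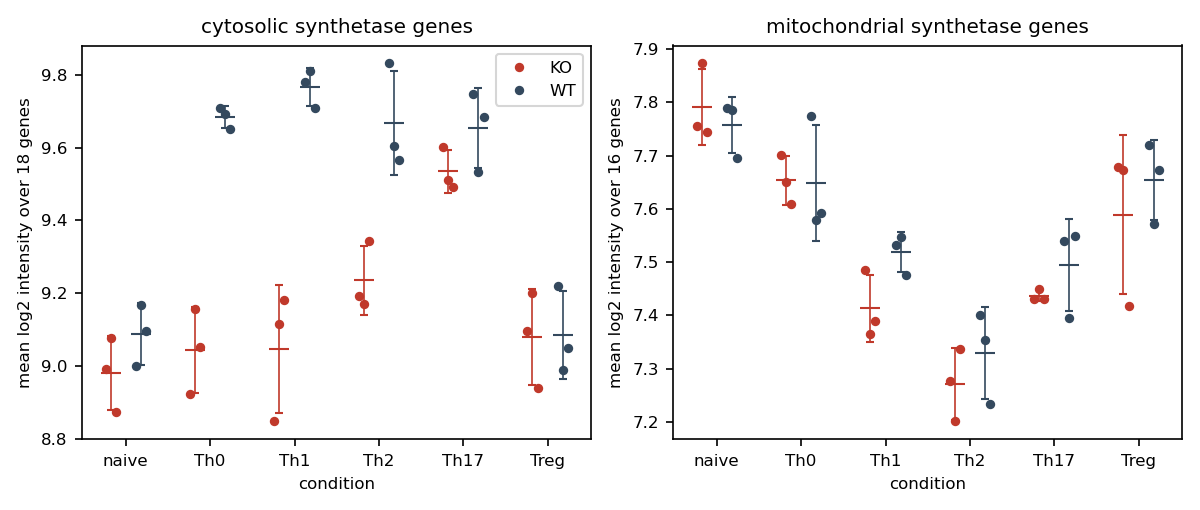
Mean log2 intensity of the 18 cytosolic and the 16 mitochondrial synthetase genes (vertical axes, which do not start at 0) in each sample, KO left of WT within each condition; dashes and bars are the group mean and SD (n = 3). The cytosolic means of the KO Th0 and KO Th1 samples lie between 8.85 and 9.18, below those of the WT samples of the same conditions (9.65 to 9.81).

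The cytosolic genes were lower as a class in KO cells stimulated in Th0 and Th1 conditions. In KO Th0 against WT Th0, 17 of the 18 fell and none rose, where 19.6% of all genes tested fell and 16.8% rose; the median change was -0.61, against -0.001 for all genes. In KO Th1 against WT Th1, 17 of 18 fell and none rose (23.7% of all genes fell and 17% rose), with a median of -0.76 against -0.03 for all genes. The mean level of the class was 9.04 ± 0.12 in KO Th0 and 9.68 ± 0.03 in WT Th0 (SD, n = 3 each), and 9.05 ± 0.18 in KO Th1 and 9.77 ± 0.05 in WT Th1. For 17 of the 18 genes all KO Th0 samples lay below all WT Th0 samples (26.2% of all genes), and for 17 all KO Th1 samples lay below all WT Th1 samples (29.8%). With sample 1 of KO Th0 and of KO Th1 both left out, an alternative chosen after seeing the data, 15 were lower in Th0 (median -0.53) and 16 in Th1 (-0.67); Lars and Qars no longer passed in Th0, and Farsa in Th1.

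Mars1, the methionine enzyme, which also charges the initiator tRNA, had the largest fall of the members in both conditions. Its levels were 8.13, 8.36 and 8.31 in KO Th0, against 9.43, 9.32 and 9.37 in WT Th0, which is 2.15-fold lower (-1.11 ± 0.14, adjusted p = 1e-06 by limma). In Th1 they were 7.93, 8.37 and 8.60 in KO Th1 and 9.56, 9.78 and 9.54 in WT Th1, 2.51-fold lower (-1.33 ± 0.14, adjusted p = 6.3e-08). The genotypes did not overlap in either condition, and Mars1 was the 1 cytosolic gene that fell at least 2-fold in each. Cars, the cysteine enzyme, read 7.60, 7.94 and 7.72 in KO Th0 and 8.82, 8.74 and 8.65 in WT Th0 (-0.98 ± 0.11, 1.98-fold lower). Nars, the asparagine enzyme, read 9.49, 9.72 and 9.68 in KO Th0 and 10.41, 10.50 and 10.48 in WT Th0 (-0.83 ± 0.11). All KO Th0 samples of both genes lay below all WT Th0 samples. In Th1, Nars read 9.45, 9.66 and 9.93 in KO Th1 and 10.59, 10.68 and 10.54 in WT Th1 (-0.92 ± 0.11). Iars, the isoleucine enzyme, read 8.95, 9.10 and 9.38 in KO Th1 and 9.999, 10.19 and 10.04 in WT Th1 (-0.93 ± 0.10). Neither gene overlapped between genotypes in Th1.

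The 4 genes whose promoters hold the TGATGNAA element changed in KO Th0 by -0.82 ± 0.13 for Gars (glycine), -0.82 ± 0.14 for Tars (threonine), -0.81 ± 0.10 for Iars and -0.77 ± 0.14 for Yars (tyrosine). Nearly all cytosolic genes fell there, with or without the element, and its part in the falls was not tested. Of the genes that fell more than these 4, the Mars1 promoter held neither motif, and Cars and Nars had no promoter matched. Eprs, Farsa, Farsb, Kars, Qars and Sars, whose matched promoters lack the element, changed less than these 4. The smallest called falls in Th0 were those of Farsa, which encodes a subunit of the phenylalanine enzyme (-0.31 ± 0.11), and Qars, the glutamine enzyme (-0.25 ± 0.10). The other subunit gene, Farsb, changed by -0.56 ± 0.12. Leaving out 1 sample ended the Th0 calls of Farsa (KO Th0 sample 2 or 3, WT Th0 sample 1 or 2), Qars (KO Th0 sample 1 or 3, any WT Th0 sample), Lars (KO Th0 sample 1) and Sars (KO Th0 sample 3), and the Th1 call of Farsa (KO Th1 sample 1). With only the groups compared, the Th0 calls of Farsa (adjusted p = 0.062 by limma) and Qars (0.13) were lost. Both were also lost without a filter, and that of Qars with samples centered on their medians.

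Wars, the tryptophan enzyme, was the cytosolic gene called in none of the 6 genotype comparisons. Its human counterpart is known to be induced by interferon-gamma. Its levels were 8.90, 9.38 and 10.17 in KO Th0 and 9.54, 10.22 and 9.75 in WT Th0 (-0.35 ± 0.21, not called). In Th1 they were 9.08, 9.64 and 9.999 in KO Th1 and 9.87, 9.95 and 9.81 in WT Th1 (-0.30 ± 0.21, not called). The KO samples spread more widely than the WT samples in both conditions and overlapped with them.

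**Figure D2:**
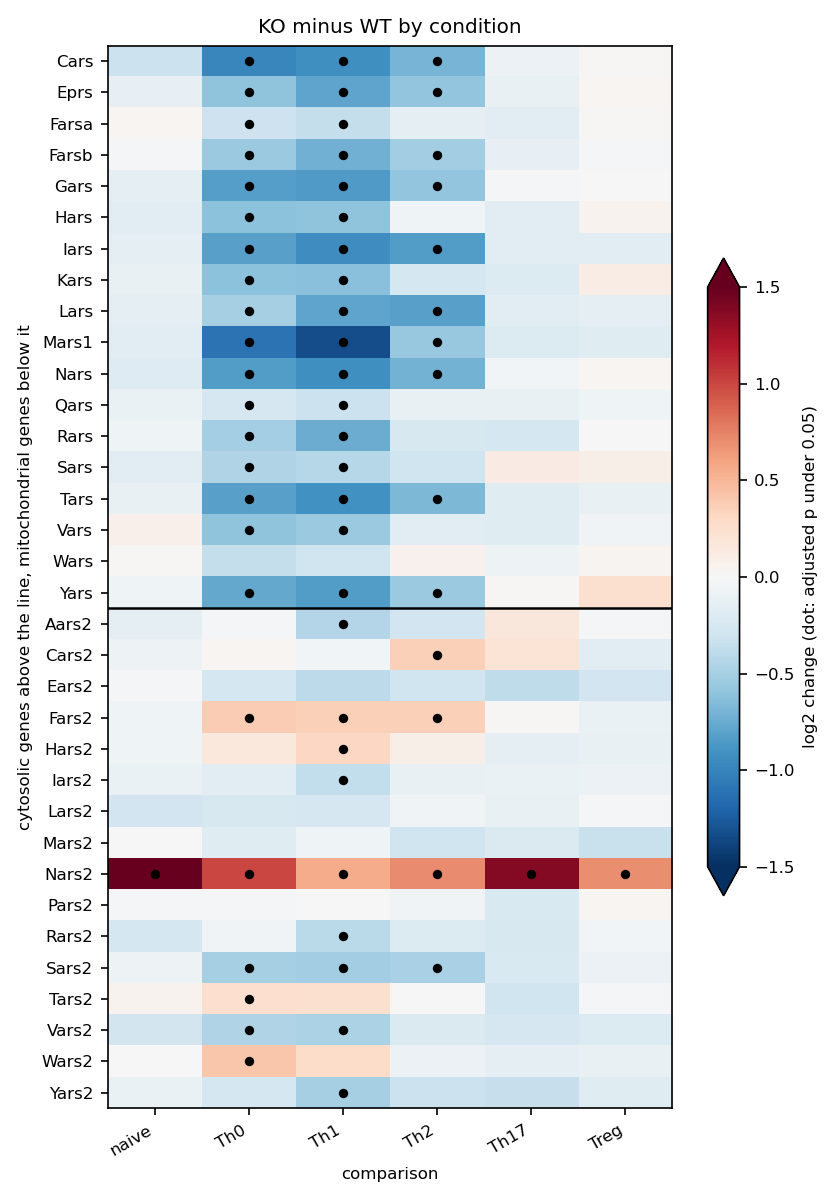
Log2 change of KO minus WT for each synthetase gene (rows, cytosolic above the line and mitochondrial below) in the 6 conditions (columns), blue lower and red higher in KO, with a dot where the adjusted p is under 0.05. The dots of the cytosolic genes fill Th0 and Th1, where 17 of 18 are called, and part of Th2, where 10 are, and Nars2 is the row with 6 dots.

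In Th2 conditions 10 of the 18 cytosolic genes fell in KO and none rose, where 8.88% of all genes fell and 7.51% rose; the median change was -0.54, against -0.02 for all genes. For 13 of the 18 all KO Th2 samples lay below all WT Th2 samples (17.9% of all genes). Iars fell most, with levels of 9.50, 9.39 and 9.69 in KO Th2 and 10.37, 10.38 and 10.35 in WT Th2 (-0.84 ± 0.10, 1.79-fold lower). Lars, the leucine enzyme, read 7.93, 7.85 and 8.55 in KO Th2 and 9.25, 8.81 and 8.70 in WT Th2 (-0.81 ± 0.15). Here the third KO sample came close to the lowest WT sample, without overlap. Nars read 10.01, 9.95 and 10.23 in KO Th2 and 10.98, 10.65 and 10.67 in WT Th2 (-0.71 ± 0.11), also apart. Mars1 changed by -0.57 ± 0.14. When only the groups compared were fitted, Lars (adjusted p = 0.062 by limma) and Farsb (0.082) did not pass. The genes called lower in Th2 (Cars, Eprs, Farsb, Gars, Iars, Lars, Mars1, Nars, Tars and Yars) were also lower in Th0 and Th1, so 10 cytosolic genes fell in 3 conditions, 7 in 2 and 1, Wars, in none.

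No cytosolic gene was called by limma in KO naive, KO Th17 or KO Treg cells against WT. In naive cells 0 of 18 passed in either direction (0.199% of all genes were lower and 0.948% higher) and 1 had an unadjusted p under 0.05, with a median change of -0.12. In Th17, 0 of 18 passed (4.18% of all genes lower and 4.03% higher), again with 1 at the unadjusted p, and the median was -0.14. In Treg, 0 of 18 passed (2.51% lower and 1.71% higher), with 0 at the unadjusted p and a median of 0.01. The class mean was 9.54 ± 0.06 in KO Th17 and 9.65 ± 0.11 in WT Th17, and 9.08 ± 0.13 in KO Treg and 9.09 ± 0.12 in WT Treg (SD, n = 3 each). Mars1 read 9.25, 9.31 and 9.30 in KO Th17 and 9.61, 9.28 and 9.58 in WT Th17, and the groups overlapped. The stricter filter, or centering the samples on their medians, called 1 synthetase gene lower in KO Th17 beside Nars2, which was higher under each.

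Whether the effect of TRIM28 loss differed between conditions was tested as a difference of differences. Against naive cells, the KO effect in Th0 was lower for 10 cytosolic genes and higher for none (10.4% and 8.06% of all genes), led by Mars1 (-0.93 ± 0.20) and Tars (-0.71 ± 0.20). Between Th1 and Th0 it differed for 0 of 34 synthetase genes by limma (0.451% of all genes lower and 0.138% higher), with 1 lower and 0 higher at an unadjusted p under 0.05. Samples of the same number were correlated between Th1 and Th0 in each genotype, and the fit did not pair them. In Th17 the KO effect was higher than in Th0 for 10 cytosolic genes and lower for none (7.41% and 8.22% of all genes), led by Mars1 (0.90 ± 0.20), Cars (0.89 ± 0.16) and Gars (0.81 ± 0.18). In Treg it was higher than in Th0 for 14 and lower for none (13.1% and 13.9%), led by Yars (1.01 ± 0.20), Cars (1.01 ± 0.16) and Mars1 (0.93 ± 0.20).

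In Th2 the KO effect was higher than in Th0 for Hars, the histidine enzyme (0.56 ± 0.18, adjusted p = 0.042), and Vars, the valine enzyme (0.45 ± 0.13, adjusted p = 0.024), and lower for no synthetase gene (4.97% and 5.22% of all genes). Neither passed without WT Th0 sample 1, KO Th0 sample 1, WT Th2 sample 2 or WT Th2 sample 3, and 1 passed without KO Th2 sample 2 or 3, WT Th0 sample 2 or 3, or KO Th0 sample 3. The tests of Th1, Th2, Th17 and Treg share the Th0 samples. With sample 1 of KO Th0 and of KO Th1 left out, the KO effect was lower for 8 cytosolic genes in Th0 against naive cells, and higher for 7 in Th17 and for 12 in Treg against Th0. For the 34 genes together the Th17 count was 12, and it was 7 without KO Th0 sample 1 and 7 without WT Th17 sample 2.

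Mitochondrial synthetase genes were called in both directions. In KO Th0 against WT Th0, 4 of 16 rose (Nars2, Wars2, Fars2 and Tars2) and 2 fell (Sars2 and Vars2), with a median change of -0.05; these are 25.0% and 12.5% of the class, against 16.8% and 19.6% of all genes. In KO Th1 against WT Th1, 3 rose (Nars2, Fars2 and Hars2) and 6 fell (Sars2, Yars2, Vars2, Aars2, Rars2 and Iars2), with a median of -0.16, which makes 18.8% and 37.5%, against 17% and 23.7% of all genes. In KO Th2 against WT Th2, 3 rose (Nars2, Cars2 and Fars2) and 1 fell, which was Sars2, or 18.8% and 6.25%, against 7.51% and 8.88% of all genes. The counts in Th0, the rises in Th1 and the fall in Th2 were near the shares of all genes, and nothing about the class is read from them. With sample 1 of KO Th0 and of KO Th1 left out, 2 rose and 2 fell in Th0, where Wars2 and Tars2 no longer passed. In Th1, 1 rose and 6 fell, and Fars2, Hars2 and Rars2 no longer passed.

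Nars2, the mitochondrial asparagine enzyme, was higher in KO cells in all 6 conditions, as were 18 of the 13082 genes (0.138%). In naive cells its levels were 10.05, 10.42 and 9.80 in KO naive and 8.37, 7.92 and 8.0 in WT naive, a 3.98-fold difference (1.99 ± 0.18, adjusted p = 4.6e-09 by limma), and no other synthetase gene was called there. In Th17 the levels were 9.54, 9.58 and 9.86 in KO Th17 and 8.19, 8.36 and 8.28 in WT Th17 (1.38 ± 0.18, 2.61-fold). The genotypes did not overlap in naive or Th17 cells. In Th0 they were 8.91, 8.62 and 9.12 in KO Th0 and 7.92, 7.83 and 7.88 in WT Th0 (1.0 ± 0.18, 2.0-fold). In Th2 they were 8.54, 8.87 and 8.50 in KO Th2 and 7.99, 8.02 and 7.79 in WT Th2 (0.70 ± 0.18). KO samples were again all above WT samples in both. In Treg they were 8.79, 8.69 and 8.38 in KO Treg and 7.99, 7.87 and 7.92 in WT Treg (0.69 ± 0.18, adjusted p = 0.016 by limma), without overlap. In Th1 they were 8.21, 7.75 and 8.70 in KO Th1 and 7.59, 7.64 and 7.77 in WT Th1 (0.55 ± 0.18, adjusted p = 0.013 by limma), where the second KO sample fell within the WT range.

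The Nars2 call in Th1 was lost without KO Th1 sample 3 (0.31, adjusted p = 0.16 by limma), and also when only the groups compared were fitted (adjusted p = 0.09). The Treg call was lost without KO Treg sample 1 (adjusted p = 0.11), KO Treg sample 2 (0.078), WT Treg sample 2 (0.077) or WT Treg sample 3 (0.062). The KO effect on Nars2 was lower in Th0 than in naive cells (-0.99 ± 0.25, adjusted p = 0.0065). Neighbors of Nars2 in the RefSeq gene order were named after their values were seen. Tenm4 was higher in KO naive (1.79 ± 0.19), KO Th2 (1.28 ± 0.19) and KO Th17 cells (1.36 ± 0.19) than in WT, and was not called in Th0, Th1 or Treg. Gab2 was lower in KO Th0 (-1.88 ± 0.29) and KO Th1 (-0.99 ± 0.29) and not called in the other conditions. Of the next genes on that side, Usp35 was higher in KO Th0 (0.30 ± 0.12), KO Th1 (0.38 ± 0.12) and KO Th17 (0.60 ± 0.12), and Kctd21 in KO Th0 (0.63 ± 0.19). Alg8 was lower in KO Th0 (-1.89 ± 0.27), KO Th1 (-1.59 ± 0.27) and KO Th2 (-0.79 ± 0.27). Of all genes 0.948% were higher in KO naive cells, 16.8% higher and 19.6% lower in KO Th0, 17% and 23.7% in KO Th1, 7.51% and 8.88% in KO Th2, and 4.03% higher in KO Th17.

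Fars2, the mitochondrial phenylalanine enzyme, rose in 3 conditions. Its levels were 8.08, 8.0 and 8.40 in KO Th0 and 7.97, 7.69 and 7.66 in WT Th0 (0.39 ± 0.11). In Th1 they were 8.15, 7.99 and 7.96 in KO Th1 and 7.71, 7.57 and 7.76 in WT Th1 (0.36 ± 0.11), and in Th2 7.73, 7.68 and 7.63 in KO Th2 and 7.31, 7.44 and 7.22 in WT Th2 (0.36 ± 0.11). The genotypes were apart in all 3. Wars2, the tryptophan enzyme of mitochondria, read 6.85, 6.61 and 6.62 in KO Th0 and 6.41, 6.30 and 6.12 in WT Th0 (0.42 ± 0.13), without overlap. Cars2, for cysteine, read 8.16, 8.21 and 8.62 in KO Th2 and 7.94, 7.87 and 8.09 in WT Th2 (0.36 ± 0.11), and Hars2, for histidine, read 7.75, 7.63 and 7.47 in KO Th1 and 7.34, 7.34 and 7.23 in WT Th1 (0.32 ± 0.12, adjusted p = 0.041 by limma). Both were apart as well. Each of these calls was lost when some single samples were left out. The Fars2 call was lost in Th0 without KO sample 3, in Th1 without KO sample 1 or WT sample 2, and in Th2 without KO sample 1 or 2 or WT sample 1 or 3. The Wars2 call was lost without KO Th0 sample 1 or WT Th0 sample 3, that of Cars2 without KO Th2 sample 3 or WT Th2 sample 1 or 2, and that of Hars2 without KO Th1 sample 1 or 2 or any WT Th1 sample. Tars2, for threonine, rose in KO Th0 (0.26 ± 0.10, adjusted p = 0.038 by limma), a call lost without KO sample 1 or any WT sample. With only the groups compared, limma did not call Fars2 in Th0 (adjusted p = 0.067) or Th2 (0.064), Tars2 in Th0 (0.1) or Cars2 in Th2 (0.16).

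Sars2, the mitochondrial serine enzyme, was the 1 gene of its class to fall in 3 conditions. Its levels were 7.24, 7.36 and 6.83 in KO Th0 and 7.76, 7.54 and 7.61 in WT Th0 (-0.50 ± 0.12). In Th1 they were 7.13, 7.38 and 6.95 in KO Th1 and 7.70, 7.69 and 7.63 in WT Th1 (-0.52 ± 0.12), and in Th2 7.10, 6.92 and 7.02 in KO Th2 and 7.62, 7.48 and 7.38 in WT Th2 (-0.48 ± 0.12). All KO samples were below all WT samples in each. Vars2, the valine enzyme, fell in Th0 (-0.45 ± 0.11) and in Th1 (-0.47 ± 0.11), and Yars2, the tyrosine enzyme, in Th1 (-0.49 ± 0.12). No single sample decided these calls, while those in Th1 of Rars2 (without KO sample 1 or 2 or WT sample 2) and Aars2 (without KO sample 2) were lost.

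**Figure D3:**
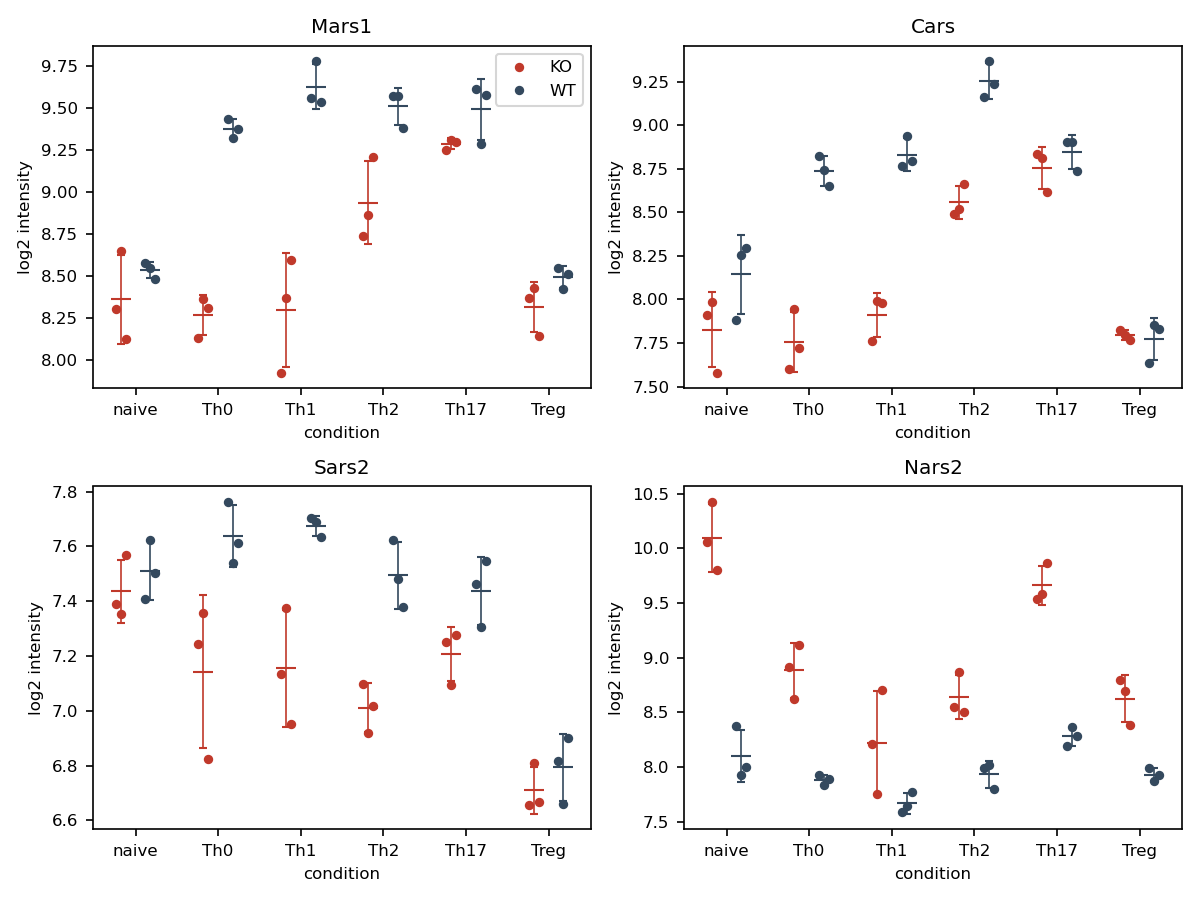
Log2 intensity (vertical axes, which do not start at 0) of Mars1, Cars, Sars2 and Nars2 in each sample, KO left of WT within each condition, with dashes and bars for the group mean and SD (n = 3). Mars1 and Cars are lower in KO Th0, Th1 and Th2, and Nars2 is higher in KO in every condition, by 0.55 in Th1 to 1.99 in naive cells.

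Cytosolic and mitochondrial enzymes for the same amino acid were set side by side for 12 amino acids, where the symbols differ in the final number alone. This leaves out Fars2 with Farsa and Farsb, and Ears2 and Pars2 with Eprs. In KO Th0 and KO Th1, Fars2 was called higher and Farsa and Farsb lower. Eprs was called lower in both, and Ears2 and Pars2 were not called. In KO Th0 against WT Th0, 2 pairs were called lower in both genes, 7 in the cytosolic gene alone, 1 in the mitochondrial gene alone and 2 in opposite directions. Among these 12, the opposite pairs were Nars (-0.83) with Nars2 (1.0), and Tars (-0.82) with Tars2 (0.26). In Th1, 5 pairs were called lower in both genes, 4 in the cytosolic gene alone and 2 in opposite directions, and 1 was not called. The cytosolic change was below the mitochondrial one in 11 of 12 pairs in Th0 and in Th1, in 9 in Th2, in 6 in Th17 and in 4 in Treg. The difference within a pair was not tested.

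Stimulation raised the cytosolic genes in WT cells. In WT Th0 against WT naive, 17 of 18 rose and none fell (31.2% and 22.3% of all genes), Farsa being the gene not called, and the median change was 0.61 against 0.04 for all genes. Vars rose most, at 10.33, 10.21 and 10.29 in WT Th0 and 9.20, 9.30 and 9.29 in WT naive (1.01 ± 0.09, 2.01-fold). Wars read 9.54, 10.22 and 9.75 in WT Th0 and 8.80, 9.0 and 8.69 in WT naive (1.0 ± 0.21), and Tars 9.28, 9.27 and 9.28 in WT Th0 and 8.22, 8.48 and 8.33 in WT naive (0.93 ± 0.14). All stimulated samples of these genes lay above the naive ones. Of the mitochondrial genes none rose and 5 fell, led by Fars2 at 7.97, 7.69 and 7.66 in WT Th0 and 8.58, 8.28 and 8.30 in WT naive (-0.61 ± 0.11). Aars2, for alanine, read 7.31, 7.02 and 7.02 in WT Th0 and 7.60, 7.71 and 7.52 in WT naive (-0.49 ± 0.13), and Tars2 8.30, 8.25 and 8.25 in WT Th0 and 8.69, 8.73 and 8.55 in WT naive (-0.39 ± 0.10). None of the 3 overlapped between stimulated and naive cells, and Ears2 and Mars2 were the others that fell. Calls lost without 1 of the samples were those of Eprs, Lars, Sars, Qars, Rars, Ears2 and Mars2.

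In KO cells the same stimulation gave fewer calls. In KO Th0 against KO naive, 2 of 18 cytosolic genes rose and none fell (26.2% and 14.7% of all genes), with a median of -0.01 against 0.06 for all genes. They were Wars, at 8.90, 9.38 and 10.17 in KO Th0 and 8.91, 8.90 and 8.73 in KO naive (0.64 ± 0.21), and Vars, at 9.50, 9.81 and 9.70 in KO Th0 and 9.54, 9.23 and 9.26 in KO naive (0.33 ± 0.09). The samples of both overlapped between the groups, and the Wars change was not called without KO Th0 sample 3 (0.30, adjusted p = 0.25 by limma) or KO naive sample 3 (0.58, adjusted p = 0.063). The class mean was 9.04 ± 0.12 in KO Th0 and 8.98 ± 0.10 in KO naive cells (SD, n = 3 each). Of the mitochondrial genes 5 fell and none rose. Nars2 fell most, at 8.91, 8.62 and 9.12 in KO Th0 and 10.05, 10.42 and 9.80 in KO naive (-1.21 ± 0.18). Ears2, for glutamate, read 7.22, 7.44 and 7.18 in KO Th0 and 7.91, 8.02 and 7.77 in KO naive (-0.62 ± 0.16), and Mars2, for methionine, 6.62, 6.42 and 6.75 in KO Th0 and 6.99, 7.09 and 7.29 in KO naive (-0.53 ± 0.12). All 3 were apart. When only the groups compared were fitted, 4 of the 34 genes were called in place of 7, and neither Wars (adjusted p = 0.14 by limma) nor Vars (0.11) passed, nor did Aars2 (0.15) or Sars2 (0.2) among the falls. Aars2 was also not called without KO Th0 sample 3 or KO naive sample 1, and Sars2 without KO Th0 sample 3, KO naive sample 1 or KO naive sample 3.

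**Figure D4:**
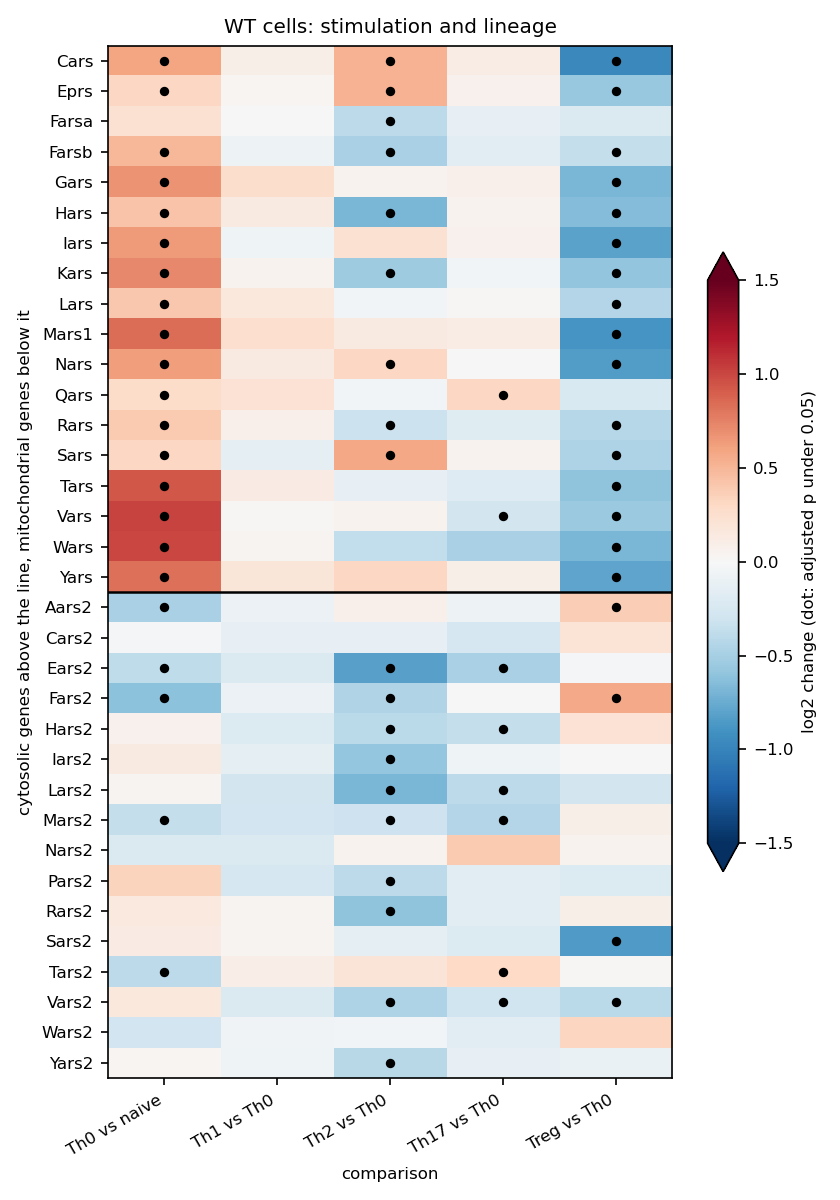
Log2 change of each synthetase gene in WT cells (rows, cytosolic above the line and mitochondrial below) for Th0 minus naive and for each lineage condition minus Th0 (columns), blue lower and red higher, with a dot where the adjusted p is under 0.05. Cytosolic dots are red for stimulation (17) and blue for Treg (16), and in Th2 the mitochondrial genes have 10 blue dots.

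In WT cells the cytosolic genes were lower in Treg than in Th0 conditions. In WT Treg against WT Th0, 16 of 18 fell and none rose (22.4% and 19.2% of all genes), with a median of -0.60 against -0.002 for all genes. Cars read 7.63, 7.85 and 7.83 in WT Treg and 8.82, 8.74 and 8.65 in WT Th0 (-0.97 ± 0.11, 1.95-fold lower), and Mars1 8.55, 8.42 and 8.51 in WT Treg and 9.43, 9.32 and 9.37 in WT Th0 (-0.88 ± 0.14). Nars read 9.70, 9.51 and 9.67 in WT Treg and 10.41, 10.50 and 10.48 in WT Th0 (-0.84 ± 0.11). The groups were apart for all 3. The class mean was 9.09 ± 0.12 in WT Treg and 9.68 ± 0.03 in WT Th0 (SD, n = 3 each). Of the mitochondrial genes 2 rose and 2 fell. Sars2 fell, at 6.82, 6.66 and 6.90 in WT Treg and 7.76, 7.54 and 7.61 in WT Th0 (-0.84 ± 0.12), without overlap, and so did Vars2 (-0.40 ± 0.11). Fars2 rose, at 8.21, 8.30 and 8.53 in WT Treg and 7.97, 7.69 and 7.66 in WT Th0 (0.57 ± 0.11), and Aars2 too, at 7.70, 7.26 and 7.49 in WT Treg and 7.31, 7.02 and 7.02 in WT Th0 (0.36 ± 0.13). Of these, Aars2 overlapped between the groups and Fars2 did not. The calls of Aars2, Farsb, Lars, Wars and Rars were lost without 1 of the samples (Aars2 without WT Treg sample 1 or 3 or WT Th0 sample 2 or 3), and that of Aars2 also with only the groups compared (adjusted p = 0.072 by limma).

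In WT Th2 against WT Th0 4 of 18 cytosolic genes were higher and 5 lower (22.2% and 27.8%), near the 17.2% and 22.9% of all genes. Sars, the serine enzyme, read 10.74, 10.93 and 10.84 in WT Th2 and 10.23, 10.29 and 10.25 in WT Th0 (0.58 ± 0.13). Eprs, which charges both glutamate and proline tRNAs, read 10.38, 10.10 and 10.15 in WT Th2 and 9.81, 9.66 and 9.60 in WT Th0 (0.52 ± 0.11), and Cars 9.16, 9.37 and 9.24 in WT Th2 and 8.82, 8.74 and 8.65 in WT Th0 (0.52 ± 0.11). All WT Th2 samples of these genes lay above all WT Th0 samples, and Nars rose by 0.31 ± 0.11. Hars read 8.79, 8.53 and 8.36 in WT Th2 and 9.30, 9.21 and 9.21 in WT Th0 (-0.68 ± 0.13), without overlap. Kars (-0.54 ± 0.13), Farsb (-0.48 ± 0.12), Farsa (-0.39 ± 0.11) and Rars (-0.32 ± 0.13) were lower too. With the replicate number as a block, Rars did not pass (adjusted p = 0.051 by limma).

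Of the mitochondrial genes 10 of 16 fell in WT Th2 against WT Th0 and none rose, where 22.9% of all genes fell and 17.2% rose. The median was -0.40 against -0.06 for all genes. Ears2 read 7.09, 6.68 and 6.38 in WT Th2 and 7.75, 7.35 and 7.51 in WT Th0 (-0.82 ± 0.16), and Lars2, for leucine, 7.13, 6.83 and 6.63 in WT Th2 and 7.79, 7.35 and 7.52 in WT Th0 (-0.69 ± 0.13). Both were apart. Rars2 changed by -0.60 ± 0.15 and Iars2 by -0.58 ± 0.09. Calls lost without 1 of the samples were those of Nars, Rars, Farsa, Hars2, Mars2, Yars2 and Pars2, and with only the groups compared those of Nars (adjusted p = 0.06 by limma), Farsa (0.064) and Pars2 (0.051). Over both classes 4 genes rose and 15 fell, and after cyclic loess scaling 7 rose and 12 fell. Centering the samples on their medians put the median of all genes at -0.11 in this comparison and at -0.12 in WT Th17 against WT Th0. It turned the cytosolic median to -0.04 in Th2, from 0.01 as deposited, and to -0.05 in Th17, from 0.03.

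In WT Th17 against WT Th0, 1 cytosolic gene rose and 1 fell (20.3% and 18.8% of all genes). Qars rose, at 10.39, 10.35 and 10.46 in WT Th17 and 10.06, 10.07 and 10.15 in WT Th0 (0.31 ± 0.10), and Vars fell (-0.27 ± 0.09). Of the mitochondrial genes Tars2 rose, at 8.57, 8.52 and 8.63 in WT Th17 and 8.30, 8.25 and 8.25 in WT Th0 (0.30 ± 0.10), and 5 fell. Neither Qars nor Tars2 overlapped between the groups. Ears2 read 7.19, 6.84 and 7.14 in WT Th17 and 7.75, 7.35 and 7.51 in WT Th0 (-0.48 ± 0.16), and Mars2 6.52, 6.08 and 6.43 in WT Th17 and 6.91, 6.67 and 6.76 in WT Th0 (-0.44 ± 0.12). Lars2 read 7.21, 7.06 and 7.21 in WT Th17 and 7.79, 7.35 and 7.52 in WT Th0 (-0.40 ± 0.13). These 3 were apart as well. Over both classes 2 rose and 6 fell; after centering none rose and 8 fell. The count of 8 was 4 without WT Th0 sample 1 and 2 without WT Th17 sample 2.

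In WT Th1 against WT Th0, limma called 0 of 34 synthetase genes (5.43% of all genes higher and 5.4% lower), with 1 higher and 2 lower at an unadjusted p under 0.05. The fit did not pair samples of the same number, which were correlated between these groups. Wars read 9.87, 9.95 and 9.81 in WT Th1 and 9.54, 10.22 and 9.75 in WT Th0, and the groups overlapped.

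Genes of the wider amino acid response were lower in KO in the same 3 conditions. Of 30 genes tested from that list, none of them a synthetase, 22 fell in KO Th0 (median -0.67), 25 in KO Th1 (-0.79) and 20 in KO Th2 (-0.60), with none higher, where 19.6%, 23.7% and 8.88% of all genes fell. In KO Th17, 1 rose and 1 fell (4.03% and 4.18% of all genes), in KO Treg 2 fell (2.51%), and in naive cells 0 were called by limma, with 1 at an unadjusted p under 0.05. Asns, asparagine synthetase, read 7.01, 7.05 and 6.24 in KO Th0 and 9.05, 9.46 and 8.96 in WT Th0 (-2.39 ± 0.41). In Th17 it read 10.11, 9.40 and 9.59 in KO Th17 and 9.78, 9.77 and 9.58 in WT Th17 (-0.01 ± 0.41, not called). The genotypes were apart in Th0 and overlapped in Th17. Slc7a5, a chain of a leucine transporter, changed by -1.85 ± 0.23 in KO Th0, and Psat1, of serine synthesis, by -2.37 ± 0.34. Atf4 itself fell in KO Th0 (-0.71 ± 0.15) and KO Th1 (-0.49 ± 0.15) and was not called in KO Th2 (-0.20 ± 0.15).

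In WT cells 22 genes of the list rose and 2 fell in Th0 against naive (31.2% and 22.3% of all genes). In WT Th2 against WT Th0, 19 rose and none fell (median 0.96; 17.2% and 22.9% of all genes), and in WT Treg against WT Th0, 20 fell and none rose (-0.72; 22.4% and 19.2%). TGATGNAA was found in the promoters of 10 of 28 genes of the list, against 4.51% of all genes with a promoter. ATF4 is known to bind many genes of the list, so its element could be foreseen there. The part of ATF4 in these changes was not tested. Of 9 partners and relatives of the synthetases, 1 fell in KO Th0, 3 fell and 2 rose in KO Th1, and 1 fell in KO Th2. Of all genes 19.6% fell in KO Th0, 23.7% fell and 17% rose in KO Th1 and 8.88% fell in KO Th2, so these counts of a short list stand near the shares of all genes. Eef1e1, a scaffold of the complex that holds several cytosolic synthetases, fell in KO Th0 (-0.68 ± 0.15), KO Th1 (-0.77 ± 0.15) and KO Th2 (-0.60 ± 0.15), and Aimp1, another scaffold, in KO Th1 (-0.54 ± 0.16).

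Of 23 cytosolic translation factors, 13 fell and 1 rose in KO Th0 (median -0.36), 16 fell and 1 rose in KO Th1 (-0.42), and 3 fell in KO Th2 (-0.12). Of all genes 19.6% fell and 16.8% rose in KO Th0, 23.7% and 17% in KO Th1, and 8.88% fell in KO Th2, near the 13.0% of the list there. Eif1ax (-0.85 ± 0.16) and Eif3b (-0.75 ± 0.12), both of initiation, fell most in KO Th0. Of 27 mitochondrial translation genes, 13 fell (48.1%) and 3 rose in KO Th0 (median -0.32), and 12 fell (44.4%) and 1 rose in KO Th1 (-0.31), among them the mitochondrial ribosomal protein gene Mrpl12 (-0.76 ± 0.15 in KO Th0).

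Proliferation genes were called in some of the comparisons in which cytosolic synthetases were. All 17 tested fell in KO Th0 (median -1.86; 19.6% of all genes) and in KO Th1 (-1.49; 23.7%), and 17 fell in WT Treg against WT Th0 (-2.17; 22.4%). Stimulation gave 16 higher in WT Th0 against WT naive (4.36; 31.2%). In KO Th0 against KO naive 12 rose and 1 fell (2.73; 26.2% and 14.7%), where the cytosolic synthetase median was -0.01. By limma 0 were called in KO Th2 (median -0.63, 6 at an unadjusted p under 0.05), KO Th17 (-0.63, 6), KO Treg (-0.07, 0) or KO naive cells (-0.09, 0). The changes of all 17 were nevertheless negative in KO Th2 and in KO Th17, with all KO samples below all WT samples for 14 in Th2 (17.9% of all genes) and 16 in Th17 (17.5%). In Th2, where 10 cytosolic synthetase genes fell, Mki67 read 10.70, 10.53 and 10.73 in KO Th2 and 11.37, 11.15 and 11.29 in WT Th2 (-0.62 ± 0.42, not called). In Th17, where 0 did, Mki67 read 10.50, 10.48 and 10.82 in KO Th17 and 11.14, 10.99 and 11.16 in WT Th17 (-0.50 ± 0.42, not called). The standard error of each gene was estimated over all 12 groups, which include the KO Th0 and KO Th1 samples that stood apart. Proliferation genes were not refitted with only the groups compared, so a missing call here does not show an unchanged level. The part of proliferation in the synthetase changes was not tested.

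**Figure D5:**
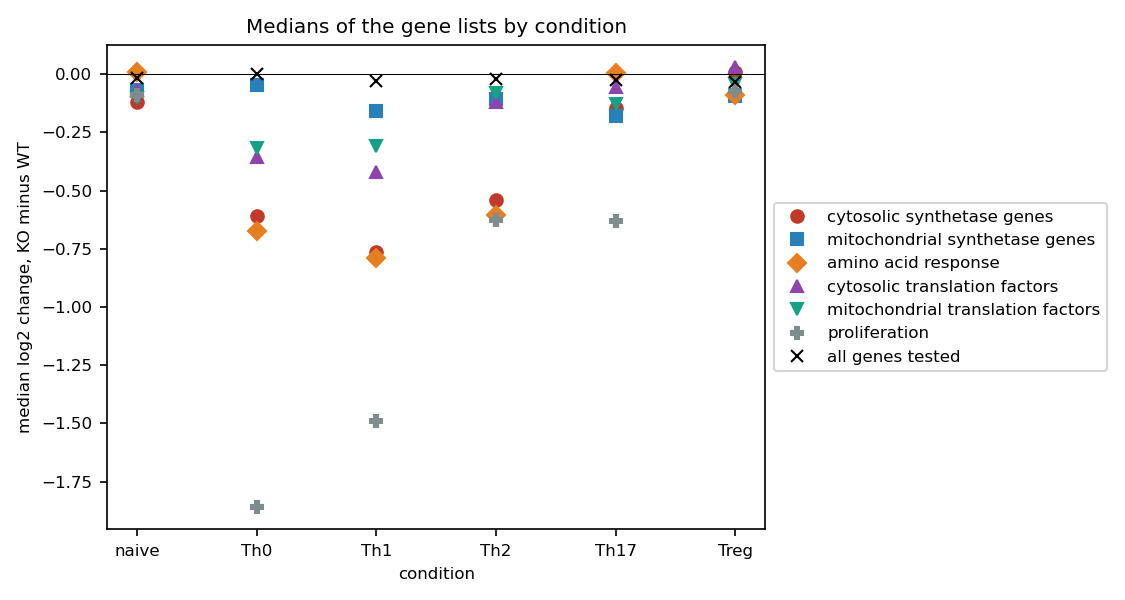
Median log2 change of KO minus WT (vertical axis) over the genes tested of each list, in the 6 conditions (horizontal axis), with no error shown. The cytosolic synthetase genes lie beside the amino acid response genes in Th0 (-0.61 and -0.67), Th1 (-0.76 and -0.79) and Th2 (-0.54 and -0.60), while the mitochondrial synthetase genes stay between -0.18 and -0.05.

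Over the 12 group means, the median correlation was 0.73 for 153 pairs of cytosolic genes, 0.34 for 120 mitochondrial pairs and -0.22 for 288 mixed pairs, a description of means that share arrays and 1 scaling. Gars (0.98), Mars1 (0.98) and Nars (0.97) were closest to the mean of the other cytosolic genes, and Farsa (0.40), Wars (0.57) and Farsb (0.60) farthest. Among mitochondrial genes Sars2 had a correlation of 0.61 with the cytosolic mean and -0.01 with its own class, while Fars2 had -0.83 with the cytosolic mean. Ears2 was closest to its own class (0.94), and Nars2 had -0.40 with the cytosolic mean and -0.09 with its own class. By group means, WT Th1 was the highest of the 12 groups for 9 cytosolic genes and WT Th2 for 7. This order was not tested, and no cytosolic gene was called between WT Th1 and WT Th0.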

How the data were processed

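Gene expression was measured on Affymetrix arrays, 1 per sample, in 36 samples that fall into 12 groups of 3 by genotype and condition, as the labels give them. Per the submitters' processing notes, the authors used RMA, the oligo package and R 3.1.0; the deposited values are log2 intensities per probe set, and the genome build was not given in the sources used here. They were used without further scaling. A platform annotation gave 1 symbol to 23521 of 41345 probe sets, several to 1814 and none to 16010. Probe sets with 1 symbol were kept, and for each gene the one with the highest mean.

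A model of 12 group means was fitted with limma (version 3.58.1, R version 4.3.3), with 24 residual degrees of freedom, 17 comparisons and Benjamini-Hochberg adjustment over 13082 genes (above the table median of 5.26 in at least 3 samples). The number of arrays limits the precision. On simulated data for KO Th17 against WT Th17 over 13082 genes, 43.3% of genes changed by 0.5 were recovered, 89.6% of those changed by 1 and 100% of those changed by 2. Of 12882 unchanged genes 11 were called. The simulation changed 67, 67 and 66 genes by these amounts, with noise independent between samples. In the data 527 genes were called higher and 547 lower there, so recovery may differ from the simulated one.

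In each comparison of groups, values per sample were given for the called synthetase genes with the largest rises and falls, up to 3 each way, for Wars in Th1 and for genes on which a result turns. Of each gene list up to 4 called genes were named, those with the largest changes, and Atf4, Asns, Myc, Slc7a5 and Mki67 in any comparison. The lists were synthetase partners, amino acid response, cytosolic and mitochondrial translation, proliferation, tRNA maturation, eIF2 kinases, Myc and mTOR, and interferon-gamma targets. Members and lists were chosen with earlier results of these data known. Alternatives were a stricter filter or none, median centering, cyclic loess, averaging the probe sets of a gene, a trended robust prior, only the groups compared, a fixed or a random replicate block, and each sample left out.

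Replicate numbers come from the sample titles. Within-group deviations of samples that carry the same number correlated above 0.1 for all 3 numbers between WT Th1 and WT Th0 (0.39, 0.33 and 0.23), WT Th2 and WT Th0 (0.25, 0.12 and 0.11) and KO Th1 and KO Th0 (0.70, 0.60 and 0.51), and not for the other pairs of groups checked. The fixed block joined both genotypes, and the random block used 1 correlation for all groups (0.06). Neither modeled these pairs of groups by themselves.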

Additional observations from a re-analysis of the deposited data

Results flagged for a closer look

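The effect of TRIM28 loss differed between conditions by a test of the difference itself, and the largest differences each way are given here on the log2 scale. Relative to naive cells, the KO effect in Th0 was lower for Nars2 (-0.99), Mars1 (-0.93) and Tars (-0.71) and higher for Fars2 (0.45). Relative to Th0, it was higher in Th2 for Hars (0.56) and Vars (0.45). In Th17 it was higher than in Th0 for Mars1 (0.90), Cars (0.89) and Gars (0.81) and lower for Wars2 (-0.57) and Tars2 (-0.55). In Treg it was higher than in Th0 for Yars (1.01), Cars (1.01) and Mars1 (0.93) and lower for Wars2 (-0.53) and Fars2 (-0.49). The Wars2 differences were not called under 10 of 21 other settings in Th17 and 10 of 21 in Treg, those of Fars2 under 11 of 22 in Th0 against naive and 5 of 22 in Treg, and those of Hars and Vars in Th2 under 12 and 7 of 22, most of them settings that leave out 1 sample.

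A second probe set annotated to Nars2, which no comparison used, was also higher in KO naive cells. It read 7.46, 7.88 and 8.10 in KO naive samples (mean 7.81 ± 0.32) and 6.42, 6.79 and 6.45 in WT naive samples (mean 6.55 ± 0.20, SD, n = 3 each), without overlap. In Th17 its mean was 6.15 ± 0.17 in KO and 5.32 ± 0.14 in WT. In Th0, Th1, Th2 and Treg its means were closer, at 5.42, 5.45, 5.63 and 5.51 in KO and 5.10, 5.16, 5.19 and 5.26 in WT. These lie near the median of all values (5.26). From WT naive to WT Th0 its mean went from 6.55 to 5.10, where the probe set used changed by -0.22 and was not called. The 2 probe sets thus differ in that comparison. Differences were not tested for the second probe set alone.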

How the results depend on the processing

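For 184 pairs of a called synthetase gene and a comparison, 3107 values were computed under other settings; none changed sign, 2823 stayed past the threshold and 284 did not, and 120 pairs passed under every setting run. With only the groups compared, KO Th0 against KO naive gave 4 genes in place of 7. KO Th17 against WT Th17 gave 2 genes (1 higher and 1 lower) in place of 1 with the stricter filter and with centered samples. The KO effect in Th2 against Th0 differed for 2 genes, for 1 without a filter, for 0 with only the groups compared and for 0 with sample 1 of KO Th0 and of KO Th1 left out. With each sample left out in turn, that count was 0 to 3, the count for the KO effect in Th17 against Th0 was 7 to 12, for KO Th17 against WT Th17 1 to 2 (2 without WT Th17 sample 2), for KO Treg against WT Treg 0 to 1 and for WT Th17 against WT Th0 2 to 8. The counts of the other comparisons stayed within 1.5 times. The cause was not tested. With the replicate number as a fixed block, Rars in WT Th2 against WT Th0 (adjusted p = 0.051 by limma) and Fars2 in the KO effect of Th0 against naive (0.05) did not pass, and no other call was lost; the count was 23 for KO Th0 against WT Th0, 27 for KO Th1 against WT Th1 and 14 for KO Th2 against WT Th2.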

Other observations

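Of 33 genes of tRNA transcription, maturation and export, 13 fell and 3 rose in KO Th0 (median -0.25), 12 fell and 2 rose in KO Th1 (-0.19), and 8 fell in KO Th2. Of all genes 19.6% fell and 16.8% rose in KO Th0, 23.7% and 17% in KO Th1, and 8.88% fell in KO Th2. Rpp30, a subunit of RNase P, which trims the 5′ end of tRNAs, changed by -1.03 ± 0.12 in KO Th0, -1.09 ± 0.12 in KO Th1 and -0.71 ± 0.12 in KO Th2. Its levels were 8.17, 8.37 and 8.16 in KO Th0 and 9.40, 9.21 and 9.18 in WT Th0. Thg1l, which adds a guanosine to histidine tRNA, changed by -0.84 ± 0.12 in KO Th0.

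Of 8 genes of eIF2 kinases and phosphatase subunits, 2 rose and 3 fell in KO Th0, and Eif2ak2, the kinase PKR, fell most (-1.13 ± 0.22). Of all genes 16.8% rose and 19.6% fell there. Of 13 Myc and mTOR genes, 4 rose and 3 fell in KO Th0, where Myc changed by -0.56 ± 0.20 (adjusted p = 0.033 by limma). Of 21 interferon-gamma genes, 3 rose and 4 fell in KO Th1, and Ifng itself changed by -2.18 ± 0.51; the counts are near the 17% and 23.7% of all genes. In WT Th1 against WT Th0, 2 of them rose and 1 fell (5.43% and 5.4% of all genes).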
